A study of Mus musculus with 58 samples.

Results

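Kupffer cells are the macrophages that reside in the blood sinusoids of the liver. The libraries described here are the Kupffer cell libraries of a mouse series in which titles carry the group CBDL6w, 6 weeks after ligation of the common bile duct (4 libraries, advanced cholestatic injury), or Sham6w, the controls at 6 weeks (4 libraries). They are 8 of 58 libraries in the series, picked by source name and title and not by any measured value. All mice were of the 129SV strain; no other allele or agent is given for either group, and the labels are silent on age, sex and how the cells were sorted. Each of the 8 titles carries 1 replicate number, while the design text says that some samples of the series pool several replicates. The other libraries come from Kupffer cells of the remaining injury groups (ligation at 2 weeks, acute colitis by DSS, and ligation with DSS) and from monocyte-derived macrophages and monocytes of livers from the same groups. Messenger RNA was read by 3' tag sequencing with molecular identifiers, and values are normalized counts, that is, reads per gene divided by 1 size factor per library. Whether identifiers were collapsed before counting is not given in the sources used here, so a read below may stand for 1 sequenced read or for 1 molecule.

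Common bile duct ligation blocks the flow of bile into the gut, so that bile acids build up in the liver and a biliary scar forms. Resident Kupffer cells are seeded before birth and keep a typical program, with receptors that clear bacteria, hemoglobin and debris from the blood. When they are lost, monocytes that enter from the blood through chemokine receptors can settle in the emptied niche and take on part of that program over time. In injured liver, macrophages that handle lipid and border on scars express genes such as Trem2, Cd63 and Gpnmb. An RNA level in a bulk library is a mean over many cells, so fewer cells of a type and less RNA per cell cannot be told apart.

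Total reads ran from 228741 to 327143 in the 4 CBDL6w libraries and from 285086 to 521954 in the 4 Sham6w libraries, with 10923 to 11998 genes detected in CBDL6w and 11767 to 13360 in Sham6w. On the first principal component of all 20 Kupffer cell libraries (13.5% of the variance) the CBDL6w libraries lay between -22.15 and -8.56 and the Sham6w libraries between 16.94 and 28.69. On the second component (10.8%) CBDL6w replicate 1 stood apart from its group, at 32.35 against -21.28 to 3.28 in the other CBDL6w libraries and 23.45 to 27.74 in Sham6w. Across genes its log2 values correlated with those of the other CBDL6w libraries at 0.732 to 0.752, while those correlated among themselves at 0.798 to 0.812. Markers of the labelled cell type were present in both groups: Clec4f stood at 50.2 to 179 normalized counts in CBDL6w and 419.9 to 497 in Sham6w, the colony-stimulating factor receptor Csf1r at 448 to 741 in CBDL6w and 565 to 708 in Sham6w, and the monocyte marker Ly6c2 had 2 reads in all CBDL6w libraries and 3 in all Sham6w libraries. Since nothing states that each replicate was its own animal, p-values here reflect the spread among libraries, which may be technical.

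At 6 weeks after ligation, genes of the resident Kupffer cell program fell, among them Clec4f, Cd163, Vsig4 and Hpgd, and the chemokine receptors Cx3cr1, Ccr2 and Ccr1 rose together with Cd63, Fn1 and Trem2. In all, 75 genes were higher and 125 lower than in Sham6w, of 6159 tested. That is 3.25% of the genes, 1.22% higher and 2.03% lower, by limma at a Benjamini-Hochberg adjusted p under 0.05. Of the 200 genes, 181 had groups that did not overlap, against 589 of all genes tested (9.56%). The calls came from the same libraries, so that share is no separate support for them. Over all genes, 3380 changes were negative and 2779 positive, and the median log2 change was -0.06. An unadjusted limma p under 0.05 was reached by 1027 genes. Changes are given as log2 values, CBDL6w minus Sham6w, on log2(normalized count + 1), with ± for the standard error. The largest rises were those of Fn1, Cx3cr1 and Cd63, and the largest falls those of Cd209f and the major urinary protein (Mup) genes. With every library scaled to an equal total the split was 95 higher and 99 lower, and with DESeq2 on the recovered reads it was 134 higher and 145 lower. Without CBDL6w replicate 1 the total was 158, 58 higher and 100 lower. It became 107 without CBDL6w replicate 4, and 104, 99 or 102 without Sham6w replicate 2, 3 or 4.

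**Figure D1:**
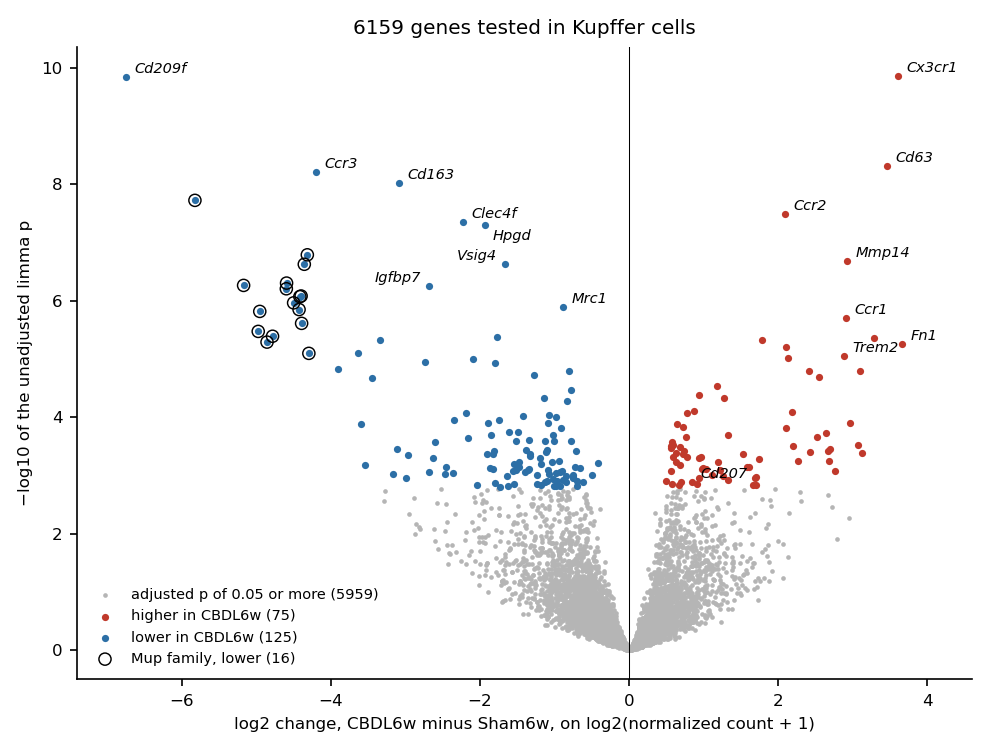
Each point is 1 of 6159 genes, with the log2 change of CBDL6w minus Sham6w on the x axis and -log10 of the unadjusted limma p on the y axis; red points (75) were higher in CBDL6w, blue points (125) lower, and open circles mark 16 Mup genes. Cd209f and the Mup genes lie at the far left and Cx3cr1 and Cd63 at the upper right.

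The fractalkine receptor Cx3cr1, the tetraspanin Cd63, the lectin Clec4f, the hemoglobin receptor Cd163 and the lectin Cd209f are among the leading rises and falls, so the sequences around their start sites are shown. Each window runs from 250 bases before to 50 after the start in RefSeq (GRCm38.p6), 5' to 3' on the gene's strand, and capitals mark matches to the motifs searched. Cd209f was added after its values were seen.
Cx3cr1 (chr9:120068247-120068546, minus strand): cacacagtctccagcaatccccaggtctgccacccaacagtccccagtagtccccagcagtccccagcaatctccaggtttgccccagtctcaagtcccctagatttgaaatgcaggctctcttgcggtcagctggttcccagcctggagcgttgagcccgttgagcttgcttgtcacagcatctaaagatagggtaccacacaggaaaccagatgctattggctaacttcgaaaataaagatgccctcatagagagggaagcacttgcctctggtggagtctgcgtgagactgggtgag
Cd63 (chr10:128909095-128909394, plus strand): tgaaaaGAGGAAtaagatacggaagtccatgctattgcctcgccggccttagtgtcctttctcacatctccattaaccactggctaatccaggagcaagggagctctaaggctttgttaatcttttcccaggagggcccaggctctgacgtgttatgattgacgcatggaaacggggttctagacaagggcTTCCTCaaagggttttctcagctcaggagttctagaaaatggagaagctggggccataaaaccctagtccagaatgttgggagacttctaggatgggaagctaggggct
Clec4f (chr6:83656067-83656366, minus strand): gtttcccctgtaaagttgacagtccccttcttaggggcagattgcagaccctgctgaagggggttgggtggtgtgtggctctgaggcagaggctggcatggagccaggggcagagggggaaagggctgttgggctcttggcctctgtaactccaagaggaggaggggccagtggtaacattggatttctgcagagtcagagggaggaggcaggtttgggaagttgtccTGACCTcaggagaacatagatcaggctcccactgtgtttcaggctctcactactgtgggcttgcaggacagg
Cd163 (chr6:124304401-124304700, plus strand): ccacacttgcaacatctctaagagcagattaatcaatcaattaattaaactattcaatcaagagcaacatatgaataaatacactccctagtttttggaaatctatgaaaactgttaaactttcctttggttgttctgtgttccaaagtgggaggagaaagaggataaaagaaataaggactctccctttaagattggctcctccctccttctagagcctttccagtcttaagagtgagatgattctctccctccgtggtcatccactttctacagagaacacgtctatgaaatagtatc
Cd209f (chr8:4105715-4106014, minus strand): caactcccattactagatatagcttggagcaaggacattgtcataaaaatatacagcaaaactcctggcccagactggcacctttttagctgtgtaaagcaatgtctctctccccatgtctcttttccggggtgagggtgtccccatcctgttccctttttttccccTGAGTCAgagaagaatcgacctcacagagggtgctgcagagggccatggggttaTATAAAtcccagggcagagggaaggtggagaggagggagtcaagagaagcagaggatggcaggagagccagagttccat

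Both strands were searched for 8 motifs, and the share of all 32851 promoter windows that hold each is a description of the letters. The Cd63 window held the PU.1 core GAGGAA 2 times, at 244 bases before the start and, on the other strand, at 59 bases before it; 28.3% of all windows hold it. The Clec4f window held 1 nuclear receptor half-site, AGGTCA, on the other strand at 22 bases before the start, a motif found in 16.3% of windows. The Cd209f window held 1 AP-1 match (TGANTCA, 7.8% of windows) and 1 TATA box (TATAAA, 13.6% of windows), at 83 and 29 bases before the start. The windows of Cx3cr1 and Cd163 held no match to these 4, nor to the MAF half-site TGCTGAC (4.7% of windows), the C/EBP motif TTGCNNAA (10.8%), the palindromic E-box CACGTG (7.2%) or the interferon-stimulated core GAAANNGAA (8.6%). AP-1 and the E-box read the same on both strands, and no 2 matches overlapped.

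Part of the genes that mark resident Kupffer cells was lower 6 weeks after ligation. Clec4f, C6, Cd163, Fcna, Gfra2, Hpgd, Pcolce2 and Vsig4 fell, which is 8 of the 27 tested members of the Kupffer cell list, against 2.03% of all genes. Cd207 rose, and 18 members did not pass the test. The list's median log2 change was -0.68, and 13 of its 27 members had groups that did not overlap, against 9.56% of all genes. The call of Fcna was lost with edgeR and DESeq2 and without CBDL6w replicate 2 or 4 or any 1 of the Sham6w replicates, and that of Gfra2 without CBDL6w replicate 2 or 4 or Sham6w replicate 1, 2 or 4.

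Clec4f (ENSMUSG00000014542, chromosome 6, 83644542 to 83656187; gene positions are on GRCm38), a galactose-binding lectin specific to Kupffer cells in the mouse, was at 159, 50.2, 179 and 59.7 normalized counts in CBDL6w replicates 1 to 4, against 464, 497, 432 and 419.9 in Sham6w replicates 1 to 4. Every CBDL6w library lay below every Sham6w library, and within CBDL6w replicates 2 and 4 were lowest (log2 change -2.22 ± 0.28, adjusted p = 3.45e-05). Cd163 (ENSMUSG00000008845, chromosome 6, 124304656 to 124330527), the receptor for hemoglobin bound to haptoglobin, was at 155, 41.2, 76.8 and 29.9 in CBDL6w, against 468, 566, 527 and 583 in Sham6w. Here too replicates 2 and 4 were lowest and the groups were far apart (log2 change -3.09 ± 0.35, adjusted p = 1.2e-05). Vsig4 (chromosome X, 96247203 to 96293438), a receptor for complement C3 fragments that captures bacteria, was at 174, 63.7, 162 and 92.8 in CBDL6w, against 351, 377, 362 and 361 in Sham6w (log2 change -1.66 ± 0.23, adjusted p = 0.000112). The Sham6w values of Vsig4 lay within a narrow band and the CBDL6w values were all lower, again lowest in replicates 2 and 4. Hpgd (chromosome 8, 56294585 to 56321043), which inactivates prostaglandins, was at 81.9, 35.0, 53.7 and 27.7 in CBDL6w, against 151, 186, 179.7 and 194 in Sham6w (log2 change -1.94 ± 0.24, adjusted p = 3.49e-05), with replicates 4 and 2 lowest.

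Other Kupffer cell markers were at nearer levels. Timd4, a receptor for phosphatidylserine on dying cells, was at 78.0, 43.0, 72.9 and 49.1 in CBDL6w, against 75.6, 89.1, 108 and 82.2 in Sham6w, and its groups overlapped (log2 change -0.57 ± 0.21, adjusted p = 0.153). The scavenger receptor Marco averaged 29.9 ± 15.8 in CBDL6w and 32.1 ± 17.8 in Sham6w (SD, n = 4 each; log2 change -0.05 ± 0.44, adjusted p = 0.974). The lipid-sensing receptor Nr1h3 averaged 114 ± 31.5 in CBDL6w and 148 ± 32.2 in Sham6w (log2 change -0.39 ± 0.23, adjusted p = 0.42). Langerin, Cd207 (chromosome 6, 83671215 to 83677857), a mannose-binding lectin, went the other way, at 211, 123, 155 and 115 in CBDL6w and 69.2, 66.1, 92.3 and 105 in Sham6w. Every CBDL6w library stood above every Sham6w library (log2 change 0.84 ± 0.23, adjusted p = 0.044). That call was lost without CBDL6w replicate 1 or 3, or Sham6w replicate 1, 2 or 3 (adjusted p up to 0.143 over all alternatives).

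**Figure D2:**
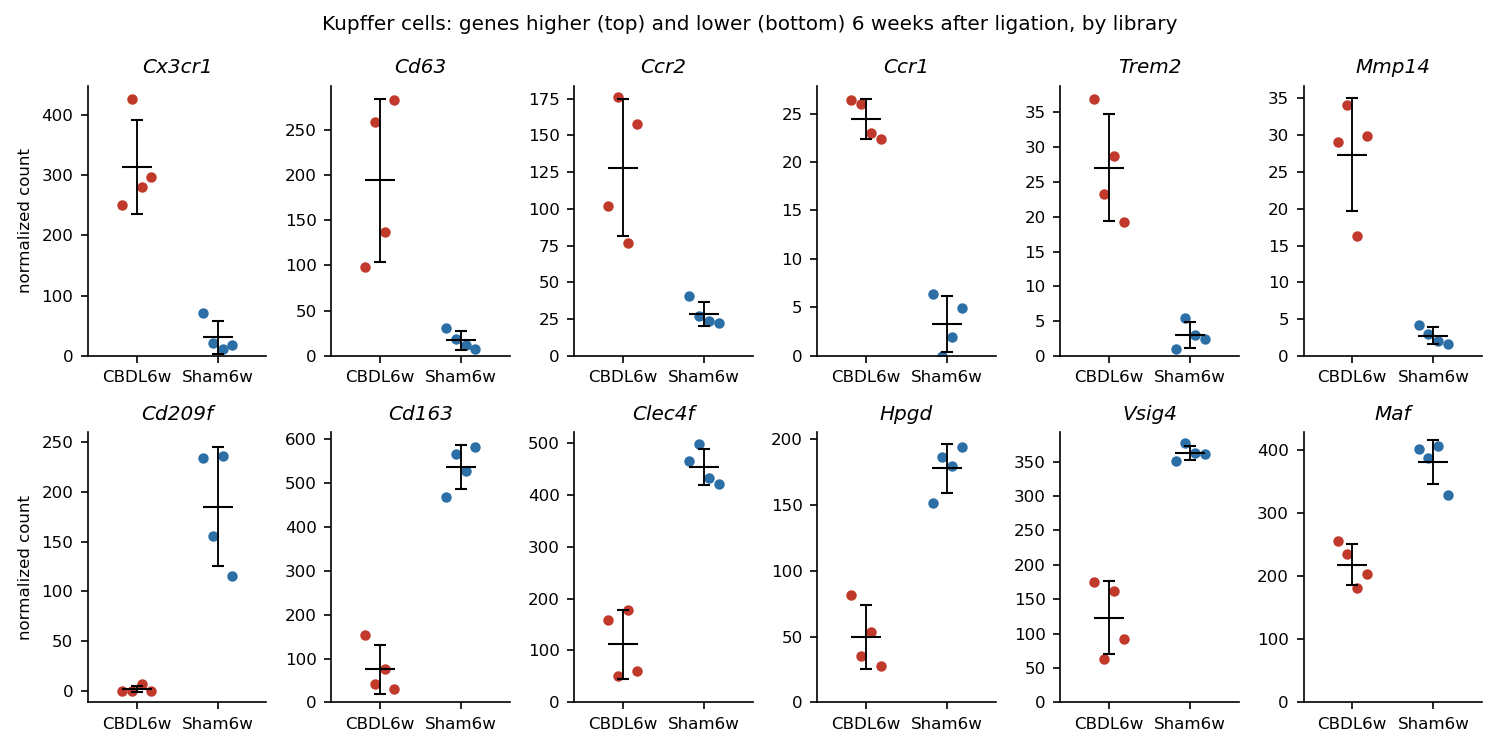
Normalized counts per library (points) with mean and SD (bars) for 6 genes that were higher in CBDL6w (top) and 6 that were lower (bottom), with CBDL6w in red at the left and Sham6w in blue at the right of each panel. In all 12 panels the libraries of the groups do not overlap, and Clec4f, Cd163, Hpgd and Vsig4 are lowest in CBDL6w replicates 2 and 4.

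Among genes shared by macrophages of many tissues, 0 of 20 tested rose and 2 fell (all genes, 1.22% higher and 2.03% lower), with a median of -0.16. The mannose receptor Mrc1 (chromosome 2, 14229392 to 14332057) was at 190.3, 164, 176 and 155 in CBDL6w and 323, 371, 314 and 267 in Sham6w (log2 change -0.89 ± 0.14, adjusted p = 0.000374). The transcription factor Maf (chromosome 8, 115682942 to 115707794) was at 255, 234, 180.4 and 203 in CBDL6w and 400.3, 386, 405 and 329 in Sham6w, with no overlap (log2 change -0.81 ± 0.15, adjusted p = 0.00222). The F4/80 antigen Adgre1, at 114 to 164 in CBDL6w and 178 to 228 in Sham6w, did not overlap between groups but missed the threshold (log2 change -0.58 ± 0.17, adjusted p = 0.0571). C1qa, a subunit of complement C1, averaged 294 ± 76.3 in CBDL6w and 349.6 ± 16.9 in Sham6w (log2 change -0.28 ± 0.15, adjusted p = 0.35). Csf1r (log2 change -0.24 ± 0.15, adjusted p = 0.442) and the lysosomal protein Cd68 (log2 change -0.44 ± 0.23, adjusted p = 0.34) did not pass either.

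Scavenger and endocytic receptors moved in both directions: 3 of 24 tested rose (Cd93, Cxcl16, Msr1) and 6 fell (Cd163, Cd209f, Cd209g, Clec4f, Colec12, Mrc1), beside 1.22% higher and 2.03% lower among all genes, with a median of -0.13. The steepest fall of any gene tested was that of Cd209f (ENSMUSG00000051906, chromosome 8, 4102787 to 4105835), a C-type lectin of the family of the mannose-binding receptor DC-SIGN. It had 0, 0, 6.72 and 0 normalized counts in CBDL6w replicates 1 to 4, against 234, 156, 236 and 115 in Sham6w. Only replicate 3 of CBDL6w held any of its reads, 7 in all, and the Sham6w libraries held 854 (log2 change -6.74 ± 0.62, adjusted p = 4.49e-07). Cd209g, a lectin gene of the same cluster, had 0 reads in CBDL6w and 67 in Sham6w, and its call was lost in a fit of the 2 groups alone. That of Colec12 was lost in the same fit and without Sham6w replicate 2, 3 or 4, and with DESeq2 5 members of the list rose. Msr1, the class A scavenger receptor that takes up modified lipoproteins, averaged 161 ± 6.09 in CBDL6w and 114 ± 13.9 in Sham6w (log2 change 0.50 ± 0.14, adjusted p = 0.0429), a call lost without any 1 library other than CBDL6w replicate 3 or Sham6w replicate 4. Cd93, a lectin-like receptor involved in uptake of dying cells, was at 29.1, 54.7, 20.2 and 33.1 in CBDL6w and 14.9, 3.64, 2.98 and 4.15 in Sham6w, with replicate 1 of Sham6w above the other controls and no overlap between groups (log2 change 2.41 ± 0.44, adjusted p = 0.00222).

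Among complement genes 5 of 19 tested fell (C2, C4b, C6, Fcna, Vsig4) and 1 (Cd93) rose, beside 2.03% lower and 1.22% higher among all genes, with a median of -0.51. C6, Fcna and Vsig4 were also counted in the Kupffer cell list, and Cd93 among the scavenger receptors. Several lists share called genes in this way, Cd163 among them, so their counts are not separate results. C6 (chromosome 15, 4727175 to 4814967), a component of the membrane attack complex, was at 74.0, 13.4, 80.6 and 39.5 in CBDL6w and 175, 236, 183 and 157 in Sham6w (log2 change -2.10 ± 0.37, adjusted p = 0.00157). Replicate 2 of CBDL6w was lowest and the groups did not overlap. C2, the protease of the classical and lectin pathway convertase, had 1 read in all of CBDL6w and 69 in Sham6w, a ratio of 0.0181 (95% exact interval 0.000451 to 0.104, counting error only). The call of C2 in limma (adjusted p = 0.00137) was lost in a fit of the 2 groups alone, and the count of 5 was 3 without Sham6w replicate 3. Fcna, a ficolin that recognizes bacterial sugars, averaged 88.2 ± 56.6 in CBDL6w and 176 ± 14.5 in Sham6w (log2 change -1.23 ± 0.33, adjusted p = 0.0374). C4b averaged 17.2 ± 4.49 in CBDL6w and 57.4 ± 25.8 in Sham6w (log2 change -1.61 ± 0.36, adjusted p = 0.0154), a call lost without Sham6w replicate 3, and its reads can be shared with the near-identical C4a. Hepatocytes also make C2, C4b and C6, and the share of reads from hepatocyte markers was 0.0474 to 0.164% in CBDL6w and 0.0881 to 0.199% in Sham6w; their part in the result was not tested.

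Among heme and iron genes 0 of 25 tested rose and 3 fell, beside 1.22% higher and 2.03% lower among all genes, with a median of -0.40. Besides Cd163, the iron exporter ferroportin, Slc40a1 (chromosome 1, 45908068 to 45926523), was at 389.9, 251, 388 and 254 in CBDL6w and 542, 665, 553 and 491 in Sham6w. All CBDL6w libraries were below all Sham6w libraries, with replicates 2 and 4 lowest (log2 change -0.83 ± 0.17, adjusted p = 0.00603). The ferritin light chain Ftl1 averaged 2186 ± 223 in CBDL6w and 2902 ± 226 in Sham6w (log2 change -0.41 ± 0.10, adjusted p = 0.0295), a call lost with equal totals, with edgeR, and without any 1 of 5 libraries (CBDL6w replicate 2 or 4, Sham6w replicate 2, 3 or 4). Heme oxygenase, Hmox1, was at 178, 103, 285 and 189.9 in CBDL6w and 247, 249.8, 349 and 308 in Sham6w, with overlap (log2 change -0.68 ± 0.25, adjusted p = 0.15).

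Of 39 transcription factors of macrophages tested, 3 fell (Klf2, Klf4, Maf) and 0 rose, beside 2.03% lower and 1.22% higher among all genes, with a median of -0.30. A rise of 1 member was called without Sham6w replicate 1, with edgeR and in a fit of the 2 groups alone, and rises of 2 members with DESeq2 and with a pseudocount of 5. Klf2 (chromosome 8, 72319033 to 72321656), a factor that restrains inflammatory genes, was at 52.9, 39.5, 62.4 and 56.5 in CBDL6w and 93.7, 115, 131 and 108 in Sham6w (log2 change -1.08 ± 0.23, adjusted p = 0.00956). Its groups did not overlap. Klf2 and Klf4 also belong to the immediate early genes that cell isolation can induce, of which 6 of 33 tested fell and 0 rose (2.03% and 1.22% of all genes; median -0.39). The AP-1 subunit Fos was at 27.8, 34.1, 42.2 and 37.3 in CBDL6w and 64.9, 90.3, 77.4 and 70.5 in Sham6w (log2 change -1.08 ± 0.28, adjusted p = 0.0337), a call lost with edgeR and without any 1 library other than CBDL6w replicate 3 or Sham6w replicate 1. The share of reads from this list was 0.603 to 0.892% in CBDL6w and 0.825 to 1.22% in Sham6w, and its part in the result was not tested. The count of 6 was 1 without CBDL6w replicate 2 and without Sham6w replicate 3 or 4, 2 without Sham6w replicate 2, and 3 without CBDL6w replicate 4.

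Among genes that glucocorticoids induce, 4 of 15 tested fell (Cd163, Dusp1, Fkbp5, Klf9) and 0 rose, beside 2.03% lower and 1.22% higher among all genes, with a median of -0.63. Fkbp5 (chromosome 17, 28399094 to 28517527), a co-chaperone of the glucocorticoid receptor, was at 7.93, 24.2, 10.6 and 22.4 in CBDL6w and 47.9, 69.7, 57.6 and 49.8 in Sham6w, with no overlap (log2 change -1.85 ± 0.42, adjusted p = 0.0164). The call was lost without CBDL6w replicate 1 or Sham6w replicate 2 (adjusted p up to 0.0541). The phosphatase Dusp1 averaged 99.8 ± 36.7 in CBDL6w and 228 ± 57.7 in Sham6w (log2 change -1.24 ± 0.34, adjusted p = 0.0462) and the factor Klf9 averaged 29.2 ± 7.55 in CBDL6w and 59.1 ± 9.80 in Sham6w (log2 change -1.01 ± 0.28, adjusted p = 0.0477). The count of 4 was 1 without CBDL6w replicate 1 or Sham6w replicate 2 and 2 without Sham6w replicate 1, 3 or 4, and Dusp1 and Klf9 each also lost their call with equal totals and with edgeR.

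Among genes of monocytes and newly recruited macrophages 6 of 24 tested were higher (Ccr1, Ccr2, Cx3cr1, Fn1, Itga4, S100a6) and 1 lower (Ifitm3), against 1.22% higher and 2.03% lower among all genes. The call of Ifitm3 was lost without any 1 of the 8 libraries. The list's median was 0.19. Cx3cr1 (ENSMUSG00000052336, chromosome 9, 119901616 to 120069879), the receptor of fractalkine, was at 251, 427, 280.3 and 297 in CBDL6w replicates 1 to 4, against 71.3, 21.8, 11.9 and 18.3 in Sham6w. The lowest CBDL6w library was above the highest Sham6w library, replicate 1, which stood apart from the other controls (log2 change 3.61 ± 0.33, adjusted p = 4.49e-07). Ccr2 (chromosome 9, 124101950 to 124113557), the receptor by which classical monocytes leave the marrow and enter tissue, was at 102, 176, 76.8 and 158 in CBDL6w, against 40.5, 27.3, 23.8 and 22.4 in Sham6w. Replicates 2 and 4 of CBDL6w were highest, the same libraries in which Clec4f was lowest (log2 change 2.09 ± 0.26, adjusted p = 2.87e-05). Ccr1 (chromosome 9, 123962124 to 123968692), a receptor for inflammatory CC chemokines, was at 26.4, 26.0, 23.0 and 22.4 in CBDL6w and 6.39, 0, 1.99 and 4.98 in Sham6w, with little spread in CBDL6w (log2 change 2.91 ± 0.46, adjusted p = 0.000509).

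Fibronectin, Fn1 (chromosome 1, 71585520 to 71653200), an adhesive matrix protein, was at 370.1, 115, 40.3 and 129 in CBDL6w and 11.7, 1.82, 31.8 and 6.64 in Sham6w. Replicate 1 of CBDL6w was highest and replicate 3 lay close to the highest control, so the groups were separate by a small margin (log2 change 3.66 ± 0.62, adjusted p = 0.00105). The integrin subunit Itga4 was at 47.6, 62.8, 27.8 and 43.7 in CBDL6w and 22.4, 18.8, 22.8 and 22.4 in Sham6w (log2 change 0.99 ± 0.25, adjusted p = 0.0335), a call lost without any 1 of 7 libraries (all but CBDL6w replicate 3). Ly6c2, the surface marker of classical monocytes, was too low to test in either group. S100a8, an alarmin of neutrophils and monocytes, averaged 7.06 ± 4.74 in CBDL6w and 6.23 ± 4.47 in Sham6w and did not pass (log2 change 0.22 ± 0.50, adjusted p = 0.882).

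Chemokine receptors diverged. Of 12 tested, Ccr1, Ccr2 and Cx3cr1 rose while Ccr3 and Fpr1 fell, beside 1.22% higher and 2.03% lower among all genes, with a median of 0.21. Ccr3 (chromosome 9, 124021972 to 124031689), the eotaxin receptor known best from eosinophils, was at 1.32, 0.897, 1.92 and 2.13 in CBDL6w, against 33.0, 38.8, 49.6 and 64.7 in Sham6w. Its CBDL6w libraries held 6 reads in all and the Sham6w libraries 223 (log2 change -4.19 ± 0.47, adjusted p = 9.6e-06). The count of lower receptors was 1 without CBDL6w replicate 4 or Sham6w replicate 3 or 4. Among 24 chemokine and cytokine genes, Cxcl16 rose and Ccl24 and Cxcl13 fell, with a median of -0.26. Cxcl16 (chromosome 11, 70453983 to 70459984), a membrane-bound chemokine that also takes up oxidized lipoprotein, was at 75.3, 58.3, 54.7 and 69.3 in CBDL6w and 25.6, 22.4, 24.8 and 41.5 in Sham6w (log2 change 1.17 ± 0.23, adjusted p = 0.00358). Cxcl13, the attractant of B cells to follicles, was at 6.61, 3.59, 4.80 and 6.40 in CBDL6w and 28.7, 35.8, 33.7 and 25.7 in Sham6w (log2 change -2.35 ± 0.51, adjusted p = 0.0111). The eotaxin Ccl24, a ligand of Ccr3, was at 15.9, 1.79, 13.4 and 8.53 in CBDL6w and 44.7, 24.9, 35.7 and 25.7 in Sham6w, with no overlap (log2 change -1.87 ± 0.48, adjusted p = 0.0333), and its call, 1 of the 2 falls here, was lost without CBDL6w replicate 2 or 4 or any 1 of the Sham6w replicates.

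Among genes of lipid- and scar-associated macrophages 5 of 23 tested rose (Cd63, Fabp5, Mmp12, Mmp14, Trem2), 1 fell (Apoc1), beside 1.22% higher and 2.03% lower among all genes, and the median was 0.40. Cd63 (ENSMUSG00000025351, chromosome 10, 128900989 to 128912822), a tetraspanin of late endosomes and lysosomes, was at 97.8, 258, 137 and 283 in CBDL6w, against 30.9, 18.8, 11.9 and 7.47 in Sham6w. Replicates 2 and 4 of CBDL6w were highest, and the groups did not overlap (log2 change 3.46 ± 0.38, adjusted p = 9.6e-06). Its near-identical pseudogene Cd63-ps, with which it may share reads, averaged 14.4 ± 7.50 in CBDL6w and 0.835 ± 1.03 in Sham6w (log2 change 3.09 ± 0.57, adjusted p = 0.00222). Trem2 (chromosome 17, 48346401 to 48354147), a receptor for lipids and dying cells, was at 37.0, 23.3, 28.8 and 19.2 in CBDL6w and 1.06, 5.46, 2.98 and 2.49 in Sham6w, with 102 reads in CBDL6w and 16 in Sham6w (log2 change 2.89 ± 0.51, adjusted p = 0.00149). The fatty acid carrier Fabp5 was at 19.8, 28.7, 20.2 and 41.6 in CBDL6w and 5.32, 10.9, 7.94 and 0 in Sham6w (log2 change 2.42 ± 0.58, adjusted p = 0.0234), a call lost without CBDL6w replicate 2 or 4 or Sham6w replicate 4, each of which left 3 rises on the list. Not every gene of that program passed: osteopontin, Spp1, averaged 7.05 ± 5.41 in CBDL6w and 2.37 ± 1.42 in Sham6w (log2 change 1.02 ± 0.67, adjusted p = 0.478), and Gpnmb averaged 4.32 ± 4.05 in CBDL6w and 1.52 ± 0.984 in Sham6w (log2 change 0.80 ± 0.62, adjusted p = 0.559).

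Matrix remodelling genes rose in 4 of 23 cases tested, among them Fn1, Mmp12 and Mmp14, and fell in 2 (Adam9, Tgfbr2), beside 1.22% higher and 2.03% lower among all genes, with a median of 0.32. Mmp14 (chromosome 14, 54431612 to 54445364), a membrane-anchored collagenase, was at 29.1, 34.1, 16.3 and 29.9 in CBDL6w and 4.26, 3.03, 1.99 and 1.66 in Sham6w. Each CBDL6w library was well above each control (log2 change 2.93 ± 0.40, adjusted p = 0.000112). Mmp12 (chromosome 9, 7344381 to 7369499), the macrophage elastase, was at 38.3, 43.9, 14.4 and 53.3 in CBDL6w and 9.58, 8.49, 1.99 and 8.30 in Sham6w, lowest in CBDL6w in replicate 3 (log2 change 2.26 ± 0.56, adjusted p = 0.0284). Its call was lost without CBDL6w replicate 1, 2 or 4 or Sham6w replicate 3 or 4, and the list held 2 rises without CBDL6w replicate 2 or 4 or Sham6w replicate 3 or 4. The receptor Tgfbr2 for TGF-beta averaged 17.9 ± 5.90 in CBDL6w and 36.4 ± 4.72 in Sham6w (log2 change -1.02 ± 0.28, adjusted p = 0.0405), a call lost without any 1 library other than CBDL6w replicate 2, with edgeR and with equal totals. Adam9, a membrane-bound protease, lost its call with edgeR and without CBDL6w replicate 1 or 4 or any 1 of the Sham6w replicates, so that 0 falls were left on the list in each of these cases and 1 without CBDL6w replicate 3.

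**Figure D3:**
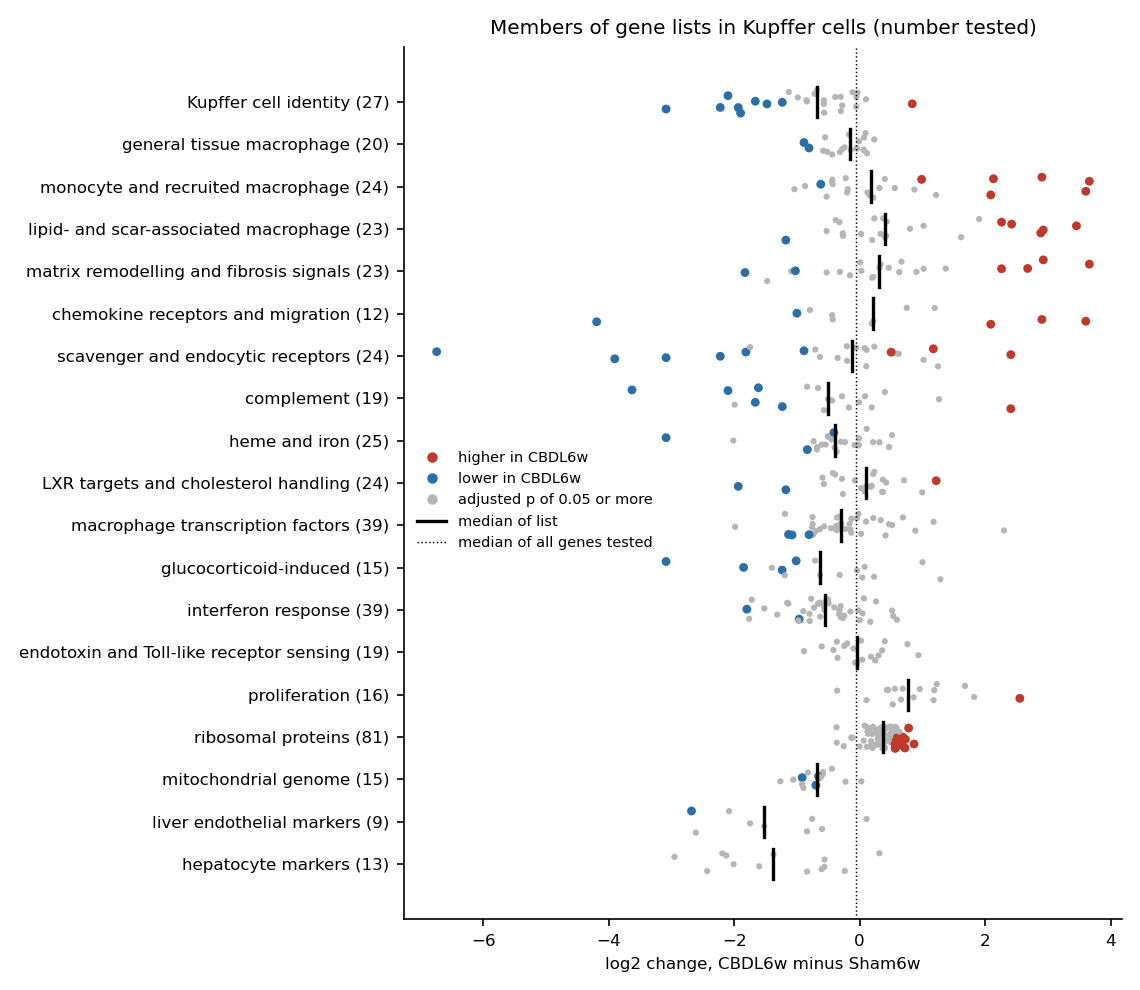
Log2 change (CBDL6w minus Sham6w) of each tested member of 19 gene lists, with red for members higher in CBDL6w, blue for lower, grey for an adjusted p of 0.05 or more, a black bar at the list's median and a dotted line at the median of all genes (-0.06). The Kupffer cell list sits to the left with a median of -0.68, and the lists of recruited and of lipid-associated macrophages have a tail of members to the right.

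Of 22 genes of NF-kB feedback, Bcl2a1b rose and Cd86 fell (median -0.35), beside 1.22% higher and 2.03% lower among all genes. Of 19 genes that sense endotoxin 0 passed in limma, edgeR or DESeq2 (median -0.04). An unadjusted limma p under 0.05 was reached by 2 of the 19, against 1027 of all 6159 genes. The endotoxin receptor Tlr4 averaged 9.99 ± 2.51 in CBDL6w and 8.02 ± 4.13 in Sham6w (log2 change 0.36 ± 0.41, adjusted p = 0.722), and its partner Cd14 averaged 14.9 ± 2.03 in CBDL6w and 15.4 ± 3.31 in Sham6w (log2 change -0.04 ± 0.30, adjusted p = 0.971). Il1b was at 147, 75.3, 63.3 and 112 in CBDL6w and 66.0, 48.5, 77.4 and 72.2 in Sham6w, with overlap (log2 change 0.53 ± 0.30, adjusted p = 0.39). Tnf, with 9 reads in CBDL6w and 15 in Sham6w, was near the limit of this depth. The costimulator Cd86 averaged 15.1 ± 5.14 in CBDL6w and 34.5 ± 9.04 in Sham6w (log2 change -1.18 ± 0.33, adjusted p = 0.0469), a call lost with edgeR, with equal totals and without any 1 library other than CBDL6w replicate 3. Bcl2a1b lost its call without CBDL6w replicate 2 or 4 or Sham6w replicate 1, 2 or 3. On the NF-kB list 2 genes rose without CBDL6w replicate 1 and with DESeq2, and 2 fell without CBDL6w replicate 3.

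Interferon-response genes had a negative log2 change in 31 of 39 cases tested, against 3380 of all 6159 genes. Of the 39, 2 fell (Rtp4, Trim30d), beside 2.03% lower among all genes. The median was -0.55. Trim30d averaged 6.39 ± 4.80 in CBDL6w and 21.9 ± 6.84 in Sham6w (log2 change -1.80 ± 0.49, adjusted p = 0.0445) and Rtp4 averaged 59.0 ± 16.7 in CBDL6w and 118 ± 38.4 in Sham6w (log2 change -0.96 ± 0.26, adjusted p = 0.0429), where replicate 4 of Sham6w lay within the CBDL6w range. The count of 2 was 0 without Sham6w replicate 2 or 3 and 1 without CBDL6w replicate 2 or 4 or Sham6w replicate 1 or 4; it was 0 with equal totals and 4 with a pseudocount of 5. Of 10 genes for presenting antigen on MHC class II, 7 had a positive log2 change, against 2779 of all 6159 genes. The only call among the 10 was the fall of Cd86 (median 0.34), beside 2.03% lower among all genes. Without CBDL6w replicate 3, 3 of the 10 genes rose, and 1 rose with DESeq2.

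Bile acid and other nuclear receptors gave no call: 0 of 14 tested passed in limma, DESeq2 or edgeR, beside 3.25% of all genes in limma. Of the 14, 11 had a negative change (median -0.29), against 3380 of all 6159 genes. An unadjusted limma p under 0.05 was reached by 1 of the 14, against 1027 of all 6159 genes. The bile acid receptor FXR, Nr1h4, had 0 reads in CBDL6w and 4 in Sham6w and could not be tested. Rxra, its partner, was at 35.7, 22.4, 23.0 and 10.7 in CBDL6w and 38.3, 36.4, 30.8 and 41.5 in Sham6w, with overlap (log2 change -0.76 ± 0.28, adjusted p = 0.16). Among 24 genes listed as targets of the oxysterol receptor LXR or for cholesterol handling, the desaturase Scd2 rose and Apoc1 and Hpgd fell (median 0.10). Hpgd is the prostaglandin enzyme that was also counted in the Kupffer cell list. Over all genes 1.22% were higher and 2.03% lower. Scd2 lost its call without any 1 library but CBDL6w replicate 1, and Apoc1 without CBDL6w replicate 2 or 4 or Sham6w replicate 1, 2 or 4. Apoe, the lipid carrier and a major macrophage transcript, was at 3042, 2824, 2861 and 2645 in CBDL6w and 2455, 2569.5, 1966 and 1627 in Sham6w. All CBDL6w values were above all Sham6w values, yet the change missed the threshold (log2 change 0.42 ± 0.17, adjusted p = 0.199).

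Proliferation genes were low in all libraries. Of 16 tested, 15 had a positive change (median 0.77), against 2779 of all 6159 genes. Birc5 alone passed, beside 1.22% higher among all genes. A further gene passed without CBDL6w replicate 3 or Sham6w replicate 1 or 4, and 3 passed with DESeq2. A fit of the 2 groups alone gave 0, but Birc5 was too low in these libraries to be tested in that fit. It met the filter of the main test only because Kupffer cell libraries of other groups were counted. Survivin, Birc5 (chromosome 11, 117849251 to 117855743), which acts at the mitotic spindle, was at 7.93, 12.6, 7.68 and 8.53 in CBDL6w and 0, 1.82, 1.99 and 0 in Sham6w, with 36 reads in CBDL6w and 5 in Sham6w (log2 change 2.55 ± 0.48, adjusted p = 0.00263). Genes of ribosomal proteins rose in 14 of 81 cases and fell in 0, beside 1.22% higher and 2.03% lower among all genes, with 75 positive changes and a median of 0.37. They took 11.4 to 13.6% of the reads in CBDL6w and 8.08 to 9.19% in Sham6w. Rpl41 (chromosome 10, 128548114 to 128549305), the smallest ribosomal protein, was at 1573, 1032, 1119 and 1192 in CBDL6w and 715, 499.6, 790.1 and 691 in Sham6w (log2 change 0.87 ± 0.18, adjusted p = 0.00887). Ribosomal genes have many near-identical pseudogenes, so single values are uncertain, and the count of 14 was 4 without CBDL6w replicate 4 or Sham6w replicate 2, 5 without Sham6w replicate 3, 8 without Sham6w replicate 4 and 9 without Sham6w replicate 1. It was 24 with DESeq2, 4 in a fit of the 2 groups alone and 1 in that fit with a replicate block.

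Among transcripts of the mitochondrial genome 3 of 15 tested fell (mt-Cytb, mt-Nd2, mt-Nd4) and 14 had a negative change, with a median of -0.67. Of all 6159 genes, 2.03% were called lower and 3380 had a negative change. mt-Cytb, a subunit of respiratory complex III, was at 726, 883, 1256 and 629 in CBDL6w and 1270.1, 1926, 1804 and 1459.8 in Sham6w (log2 change -0.92 ± 0.20, adjusted p = 0.0134). The genome's share of reads was 4.22 to 7.23% in CBDL6w and 6.46 to 9.00% in Sham6w, so those ranges overlapped. The count of 3 was 10 without CBDL6w replicate 3, 0 without CBDL6w replicate 4 or Sham6w replicate 2 or 3, and 1 without CBDL6w replicate 2 or Sham6w replicate 4; it was 8 with a pseudocount of 5 and 1 in a fit of the 2 groups alone. Nuclear genes of the respiratory chain gave 0 calls of 71 tested in limma, edgeR or DESeq2, with a median of 0.03. An unadjusted limma p under 0.05 was reached by 4 of the 71, against 1027 of all 6159 genes.

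The deepest falls as a family were those of the major urinary proteins, pheromone carriers that hepatocytes secrete. Of 17 tested, 16 fell and all 17 had groups that did not overlap (2.03% of all genes fell and 9.56% did not overlap), with a median of -4.50; the family was chosen after its values were seen. Mup7 (chromosome 4, 60066469 to 60070475) was at 10.6, 2.69, 6.72 and 0 in CBDL6w and 250.2, 288, 360.3 and 128 in Sham6w (log2 change -5.82 ± 0.69, adjusted p = 1.94e-05). These genes are near-identical copies that share reads, so the level of any one is uncertain. As a family they took 0.00467 to 0.0997% of the reads in CBDL6w and 0.511 to 1.39% in Sham6w. In monocyte-derived macrophages Mup7 averaged 3.16 ± 4.01 in CBDL6w and 76.5 ± 42.6 in Sham6w (SD, n = 4 and 3), and in monocytes 0.621 ± 1.24 in CBDL6w and 44.9 ± 11.9 in Sham6w. Whether these reads came from the sorted cells or from hepatocyte RNA was not tested.

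Lists of hepatocyte and endothelial markers were measured beside these. The hepatocyte list includes 1 Mup gene, Mup3 (log2 change -2.95, limma adjusted p = 0.0857), so it is not wholly separate from the family. Of 13 hepatocyte markers tested, 0 passed in limma, 8 had an unadjusted p under 0.05 and 12 a negative change (median -1.37). Of all 6159 genes, 2.03% fell in limma, 1027 had an unadjusted p under 0.05 and 3380 a negative change. Albumin, Alb, was at 37.0, 7.17, 9.60 and 7.47 in CBDL6w and 25.6, 13.9, 46.7 and 14.1 in Sham6w. Of 9 endothelial markers, Igfbp7 fell, with 2.64, 5.38, 4.80 and 5.33 in CBDL6w and 27.7, 29.1, 54.6 and 29.0 in Sham6w (log2 change -2.68 ± 0.39, adjusted p = 0.000216); 3 fell without CBDL6w replicate 3, and 1 hepatocyte marker without CBDL6w replicate 1. With a pseudocount of 5, 2 hepatocyte and 2 endothelial markers fell. Endothelial markers took 0.0306 to 0.0385% of the reads in CBDL6w and 0.0495 to 0.0971% in Sham6w, with no overlap. In CBDL6w 4 of 24 endothelial markers and 2 of 27 hepatocyte markers had no read, against 1 of 24 and 0 of 27 in Sham6w. Their part in the falls described above was not tested. Marker lists of bile duct cells, neutrophils and T and NK cells took at most 0.0104% of the reads in any of the 8 libraries.

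**Figure D4:**
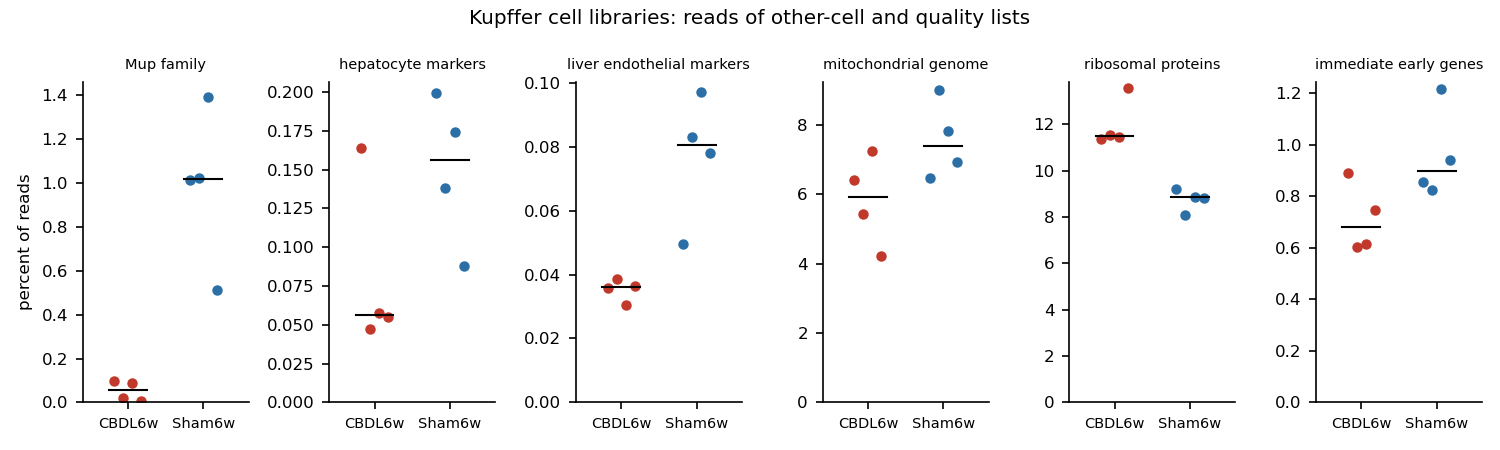
Percent of reads in each Kupffer cell library (points; bar at the median) from 6 lists, with CBDL6w in red at the left and Sham6w in blue at the right of each panel. The Mup family, the endothelial markers and the ribosomal proteins do not overlap between groups, while the other 3 lists do.

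The design also sets the advanced stage against the onset of injury. This comparison shares its CBDL6w libraries with the one above. In a direct test of CBDL6w against CBDL2w (2 weeks after ligation, 4 libraries) 0 of 6159 genes passed in limma (0%), with 449 at an unadjusted p under 0.05. edgeR gave 0 and DESeq2 gave 10, and limma gave 1 without CBDL6w replicate 1 or 2. Clec4f averaged 112 ± 66.2 in CBDL6w and 114 ± 18.3 in CBDL2w (log2 difference -0.23 ± 0.28, adjusted p = 0.877), and Cx3cr1 averaged 314 ± 77.7 in CBDL6w and 259.8 ± 24.6 in CBDL2w (0.25 ± 0.33, adjusted p = 0.894). Fos averaged 35.3 ± 6.07 in CBDL6w and 88.7 ± 24.2 in CBDL2w (-1.28 ± 0.28, adjusted p = 0.17). Dusp1 averaged 99.8 ± 36.7 in CBDL6w and 223 ± 75.9 in CBDL2w (-1.18 ± 0.34, adjusted p = 0.361), and Fkbp5 averaged 16.3 ± 8.22 in CBDL6w and 40.7 ± 15.1 in CBDL2w (-1.32 ± 0.42, adjusted p = 0.531). A p that misses the threshold does not show that the stages were alike.

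The ligation effect in Kupffer cells was then set against that in monocyte-derived macrophages (4 CBDL6w and 3 Sham6w libraries, of which 2 Sham6w libraries pool replicates). The Kupffer cell libraries are the same as above. The difference between effects passed for 30 of 7555 genes (0.397%), more positive in Kupffer cells for 18 (0.238%) and more negative for 12 (0.159%). Of the 75 genes that rose in Kupffer cells, 10 were among the 18, and of the 125 that fell, 4 were among the 12. Cx3cr1 averaged 314 ± 77.7 in CBDL6w and 30.8 ± 27.3 in Sham6w Kupffer cells, and 239.7 ± 33.4 in CBDL6w and 169 ± 146 in Sham6w monocyte-derived macrophages (difference of effects 2.78 ± 0.45, adjusted p = 0.000922). Cd63 averaged 194 ± 90.3 in CBDL6w and 17.3 ± 10.2 in Sham6w Kupffer cells, and 33.6 ± 28.7 in CBDL6w and 32.5 ± 26.3 in Sham6w monocyte-derived macrophages (3.52 ± 0.74, adjusted p = 0.0127). Mmp12 averaged 37.5 ± 16.6 in CBDL6w and 7.09 ± 3.45 in Sham6w Kupffer cells, and 5.22 ± 4.75 in CBDL6w and 11.1 ± 3.40 in Sham6w monocyte-derived macrophages (3.70 ± 0.89, adjusted p = 0.0386). That call for Mmp12 was lost with edgeR and without KC CBDL6w replicate 1, 2 or 4, KC Sham6w replicate 2, 3 or 4, MoMF CBDL6w replicate 3 or 4, or MoMF Sham6w replicate 1+2+5. For Clec4f the difference of effects was -0.38 ± 0.97, adjusted p = 0.914, and for Cd163 it was -0.68 ± 0.86, adjusted p = 0.799; without MoMF Sham6w replicate 1+2+5 both were above 0 and did not pass. Without 1 library the total of 30 was between 12 (MoMF Sham6w replicate 1+2+5) and 153 (MoMF Sham6w replicate 3). It was 151 without MoMF Sham6w replicate 4+6, 15 without KC CBDL6w replicate 1 and 56 without KC CBDL6w replicate 3. MoMF Sham6w replicate 1+2+5 held 118687 reads and 8885 detected genes, the fewest of all libraries in the series.

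Against monocytes (4 CBDL6w and 3 Sham6w libraries, of which 2 Sham6w libraries pool replicates) the effect differed for 119 genes (1.58%), 96 more positive in Kupffer cells (1.27%) and 23 more negative (0.304%). Of the 75 genes that rose in Kupffer cells 18 were among the 96, and of the 125 that fell 7 were among the 23 and 2 among the 96. They included Cx3cr1 (3.29 ± 0.45, adjusted p = 1.59e-05), Mmp14 (3.55 ± 0.51, adjusted p = 2.32e-05) and Fn1 (3.15 ± 0.68, adjusted p = 0.0072). Cd209f was at 0.981 ± 1.36 in CBDL6w and 0.746 ± 1.29 in Sham6w monocytes, near 0 in both (-6.93 ± 1.14, adjusted p = 0.0002; call lost with edgeR and DESeq2). Ccr2 averaged 448 ± 91.2 in CBDL6w and 253 ± 26.1 in Sham6w monocytes, above both groups of Kupffer cells (1.28 ± 0.34, adjusted p = 0.0401). The call for Ccr2 was lost with edgeR and without KC CBDL6w replicate 2 or 4, KC Sham6w replicate 2, 3 or 4, Mo CBDL6w replicate 1, 3 or 4, or any 1 of the Mo Sham6w libraries. The total of 119 was 48 without Mo Sham6w replicate 3+6, 71 and 75 without KC Sham6w replicates 1 and 2, 77 without KC CBDL6w replicate 2, 79 and 76 without Mo CBDL6w replicates 1 and 2, and 51 with edgeR.

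**Figure D5:**
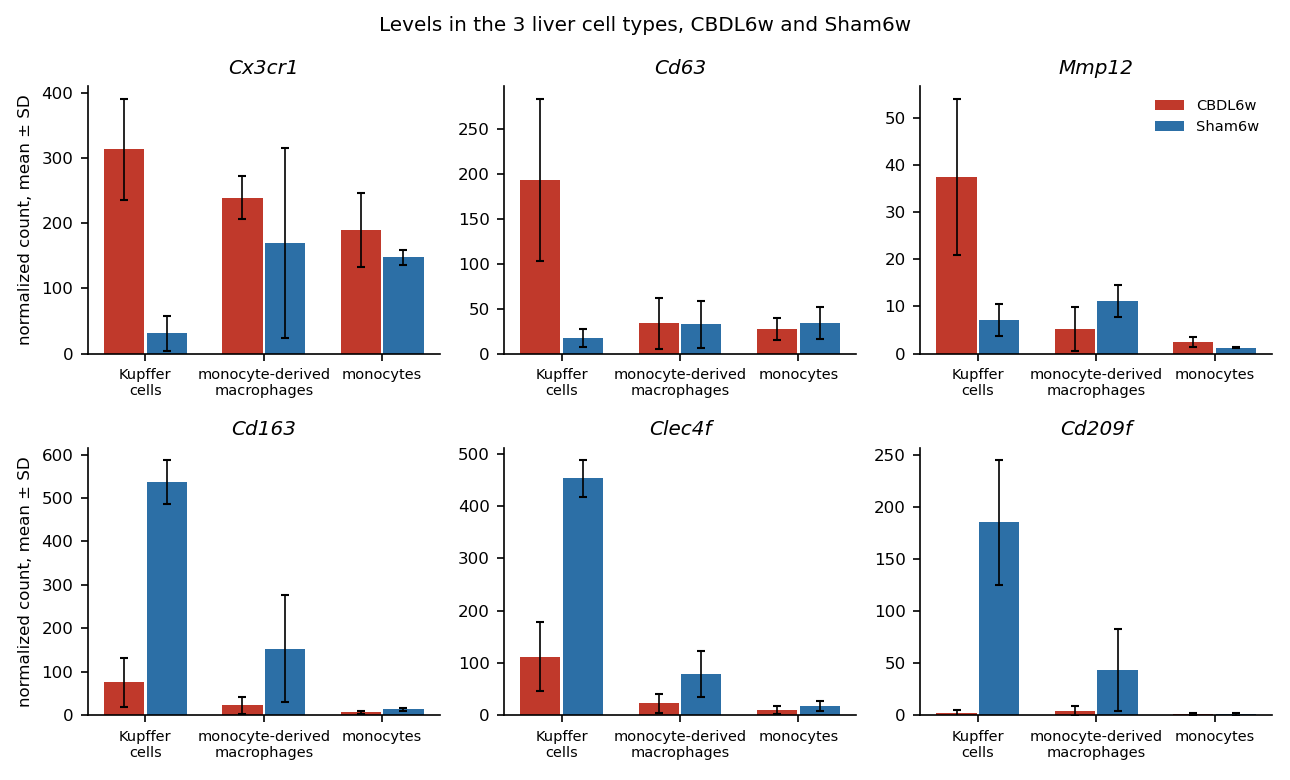
Mean normalized count with SD in Kupffer cells, monocyte-derived macrophages and monocytes, CBDL6w in red at the left and Sham6w in blue at the right of each pair (n = 4, and 3 in Sham6w for the other two cell types). The bars of Cx3cr1, Cd63 and Mmp12 are farthest apart in Kupffer cells, and Cd163, Clec4f and Cd209f are highest in Sham6w Kupffer cells.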

How the data were processed

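The 8 libraries were made from total RNA with a 3' messenger RNA kit and molecular identifiers, per the labels' protocols. The authors deposited 1 signal per gene and library, normalized counts, that is, gene counts divided by a DESeq2 size factor. The tools listed in the submitters' processing notes, without roles, are STAR 2.7.5b, RSEM 1.3.1, UMI-tools 1.0.1, DESeq2 and Trimmomatic (0.39, 0.39-1), with GRCm38.p6 as the build. Steps in each column gave back whole reads for 100% of values within 0.01 of an integer. Symbols and positions came from GENCODE M21 (25272 of 25307 identifiers), promoter sequences from RefSeq. Groups and replicate numbers came from the titles.

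Genes at 10 or more in at least 3 of the 20 Kupffer cell libraries were tested with limma 3.58.1 (R 4.3.3, trend and robust) on log2(value + 1), all 5 groups in 1 fit, two-sided, with Benjamini-Hochberg adjustment over 6159 genes. Differences between cell types came from 1 fit of all 58 libraries (7555 genes), with libraries of the same title number treated as unpaired. Alternatives were DESeq2 1.42.0 or edgeR 4.0.16 fitted to the recovered reads, another pseudocount (5), no filter, equal totals, each library left out, the 2 groups alone and a replicate block. Intervals cover counting error only. One called gene of the matrix list is not reported here. The Kupffer cell libraries, the 41 gene lists and the promoters were chosen with earlier results of these data known. Named genes were the 12 largest rises and the 12 largest falls among called genes with a mean of at least 50 and no overlap, up to 4 called members of each list, and 26 fixed markers, 98 in all; Msr1, Fcna, C4b, S100a8, Alb and Cd63-ps were added after their values were seen. The 3 tests were also run on simulated data, and the outcome of that run is not reported here.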

Additional observations from a re-analysis of the deposited data

Results flagged for a closer look

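In groups of 4 libraries, 16 of 228 groups examined held 1 library far from the others, where chance alone gives about 1 in 20. Among genes that changed in Kupffer cells, Cx3cr1 was at 71.3 in Sham6w replicate 1, against 11.9 to 21.8 in the other controls, and Cd93 was at 14.9 in that library, against 2.98 to 4.15. Cxcl16 was at 41.5 in Sham6w replicate 4, against 22.4 to 25.6, and Rtp4 at 60.6 in that library, against 134 to 139. Mmp12 was at 1.99 in Sham6w replicate 3, against 8.30 to 9.58, and Igfbp7 at 54.6 in that library, against 27.7 to 29.1. Itga4 was at 18.8 in Sham6w replicate 2, against 22.4 to 22.8. Within CBDL6w, Cd209f was at 6.72 in replicate 3 and 0 in the others, C2 at 1.07 in replicate 4 and 0 in the others, and Rps7 at 588 in replicate 1, against 419.6 to 440.5. Among genes that did not pass, the factor Irf8 was at 62.1 in CBDL6w replicate 1, against 37.3 to 40.3, and the antibody transporter Fcgrt at 68.1 in CBDL6w replicate 3, against 44.8 to 48.0. Hemoglobin Hba-a1 was at 125 in Sham6w replicate 4, against 25.6 to 36.7. The Y-linked gene Uty was at 37.3 in CBDL6w replicate 4, against 0.897 to 5.29, and Xist had no read in any of the 8 libraries. Hepatocyte markers took 0.164% of the reads of CBDL6w replicate 1, against 0.0474 to 0.0577% in the other CBDL6w libraries, and ribosomal proteins 13.6% of CBDL6w replicate 4, against 11.4 to 11.5%. Cd209f and C2 had 3 libraries at 0, where any read at all stands apart, so these 2 of the 16 say nothing of a library; for C2 it was 1 read.

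Of the 30 genes whose ligation effect in Kupffer cells differed from that in monocyte-derived macrophages, those with the largest differences in each direction (up to 5, with a mean of at least 50 in 1 of the 4 groups and predicted genes aside) were Cela1 (5.06), Cd63 (3.52), Hist1h2ao (3.23), Hist1h2ap (3.13), Cx3cr1 (2.78), Nipa2 (-2.78), Fth1 (-2.0), Cyfip1 (-1.73) and Lyz1 (-1.69), each the difference of log2 effects, limma adjusted p from 0.000922 to 0.0386. Mmp12, below that mean, differed by 3.70. For Cela1, an elastase, Kupffer cells averaged 66.9 ± 29.8 in CBDL6w and 55.4 ± 37.2 in Sham6w, while monocyte-derived macrophages averaged 1.35 ± 2.16 in CBDL6w and 144 ± 223 in Sham6w (SD, n = 3 in that Sham6w group). Against monocytes the largest by the same rule were Meis2 (4.79), Siglech (4.50), Nrp2 (4.40), Bmp2 (4.29), Dnase1l3 (4.25), Cd209f (-6.93), P4ha1 (-2.58), Pisd (-2.44), Zyx (-2.16) and AB124611 (-1.91), with adjusted p from 0.000155 to 0.0343. Below these stood Mmp14 (3.55), Cx3cr1 (3.29), Fn1 (3.15) and Ccr2 (1.28). The calls of Cela1, Nipa2, Meis2 and Siglech were each lost in 8 to 10 alternatives. Meis2, Siglech, Bmp2 and Dnase1l3 averaged at most 7.05 in either group of Kupffer cells and from 51.2 to 74.1 in Sham6w monocytes. Those Sham6w monocyte libraries also held 0.489 to 0.853% of their reads in liver endothelial markers, against 0.0392 to 0.0783% in CBDL6w monocytes. Whether other cells gave these differences was not tested. Zyx averaged 20.5 ± 12.7 in CBDL6w and 51.3 ± 13.8 in Sham6w Kupffer cells, and 44.7 ± 14.3 in CBDL6w and 27.9 ± 11.3 in Sham6w monocytes.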

How the results depend on the processing

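Of 1061 values of 71 called genes under 15 alternatives, 805 stayed past the threshold, 256 did not and 0 changed sign. In every alternative that tested them 36 genes passed, among them Cx3cr1, Cd63, Ccr2, Fn1, Trem2, Cd209f, Cd163, Clec4f, Vsig4 and Mrc1. Birc5, counted in the 36, was tested in 13 of the 15. The count of 200 genes in CBDL6w against Sham6w was 128 with no filter on low values and 90 in a fit of the 2 groups alone. In that fit with the replicate number as a block it was 76. Kupffer cell libraries of the same number correlated between -0.017 and 0.022 in their deviations from the group means, so no pairing by number was seen between the 2 groups. A shared batch was not tested. Some titles give the same group and number to libraries of different cell types, which the main fits treated as unpaired. With injury group and number as a random block the differences were 31 from monocyte-derived macrophages and 129 from monocytes. Without 1 library the count of 200 was between 99 (Sham6w replicate 3) and 259 (CBDL6w replicate 3), with 107 without CBDL6w replicate 4, 104 without Sham6w replicate 2 and 102 without Sham6w replicate 4. CBDL6w against CBDL2w gave 0 genes, 10 with DESeq2 and 0 to 1 without 1 library (1 without CBDL6w replicate 1 or 2). The 30 differences from monocyte-derived macrophages were 15 with edgeR and 12 (without MoMF Sham6w replicate 1+2+5) to 153 (without MoMF Sham6w replicate 3; 151 without MoMF Sham6w replicate 4+6) without 1 library. The 119 differences from monocytes were 191 with a pseudocount of 5, 51 with edgeR and 48 (without Mo Sham6w replicate 3+6) to 113 without 1 library. The difference of effects between Kupffer cells and monocyte-derived macrophages, which did not pass, turned to 0.0884 for Clec4f without MoMF CBDL6w replicate 2 and 0.20 without MoMF Sham6w replicate 1+2+5 (lowest -0.75 without MoMF Sham6w replicate 3), and to 0.0257 for Cd163 with edgeR and 0.38 without MoMF Sham6w replicate 1+2+5. Of 42 gene lists, 29 had a count of called members that moved by over 1.5 times in at least 1 alternative. The cause of these shifts was not tested. With 228741 to 521954 reads in each of the 8 Kupffer cell libraries, genes at a few normalized counts could not be judged.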

Other observations

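Several further gene groups were measured in the same 8 Kupffer cell libraries. Beside each count of calls below stand the shares over all genes tested, 1.22% higher and 2.03% lower. The signal-regulatory protein Sirpb1c averaged 106 ± 34.8 in CBDL6w and 24.6 ± 11.0 in Sham6w (log2 change 2.10 ± 0.36, adjusted p = 0.00115); it has near-identical copies, so its reads may be shared. The guanine deaminase Gda averaged 55.5 ± 8.52 in CBDL6w and 22.5 ± 4.16 in Sham6w (log2 change 1.27 ± 0.25, adjusted p = 0.00538). The glycolytic kinase Pgk1 alone rose among 19 genes of glycolysis and hypoxia, at 37.0 ± 7.26 in CBDL6w and 19.9 ± 7.93 in Sham6w (log2 change 0.91 ± 0.25, adjusted p = 0.0462; list median 0.21), a call lost without any 1 library other than CBDL6w replicate 3 or Sham6w replicate 4. Of 48 lysosomal genes Cd63 rose and the proton pump subunit Atp6v1a fell (log2 change -0.72 ± 0.17, adjusted p = 0.0234; list median -0.08), a call lost without CBDL6w replicate 4 or Sham6w replicate 3 or 4, and 2 lysosomal genes rose without CBDL6w replicate 1 or 3. Of 22 genes for uptake of dying cells Trem2 rose and Cd47, the ligand that restrains uptake, fell (log2 change -0.50 ± 0.13, adjusted p = 0.0372; list median -0.03); on that list 2 genes rose without Sham6w replicate 3, 3 rose with DESeq2, and 2 fell without CBDL6w replicate 3. Of 26 growth factor and cytokine receptors Il6ra, the interleukin-6 receptor chain, fell, at 54.9 ± 9.24 in CBDL6w and 92.3 ± 8.64 in Sham6w (log2 change -0.75 ± 0.20, adjusted p = 0.0398), as did Tgfbr2 (list median 0.08). Itga4 was the only call among 16 integrins and adhesion genes (list median -0.00043). The calls of Cd47 and Il6ra were each lost without any 1 library other than CBDL6w replicate 4, that of Tgfbr2 without any 1 other than CBDL6w replicate 2, and that of Itga4 without any 1 other than CBDL6w replicate 3.

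Of all 6159 genes 3.25% passed in limma, and 1027 had an unadjusted limma p under 0.05. In limma 0 of 20 genes of MHC class I presentation passed (3 at an unadjusted p under 0.05, median -0.11), and edgeR and DESeq2 gave 0. The counts were likewise 0 of 7 Fc receptors (1 unadjusted, median -0.06) and 0 of 19 antioxidant and stress genes (3 unadjusted, median -0.18) with the same 3 tools; without CBDL6w replicate 3, 1 antioxidant gene and 2 platelet or erythroid markers fell. Of 2 sex-linked transcripts tested 0 passed in limma, and 1 fell without CBDL6w replicate 4. Marker lists of other cells held few testable genes: 0 of 2 stellate cell, 0 of 1 bile duct, 0 of 2 neutrophil, 0 of 2 B cell, 0 of 5 dendritic cell and 0 of 4 platelet or erythroid markers passed in limma, edgeR or DESeq2, and no T or NK cell marker could be tested. The bile duct marker tested was Spp1, which is also on the list of lipid- and scar-associated macrophages. Of 6 bile duct markers, 5 had no read in Sham6w and 2 had none in CBDL6w. B cell markers took 0.0198 to 0.0293% of the reads in CBDL6w and 0.0277 to 0.0454% in Sham6w, dendritic cell markers 0.0676 to 0.0887% in CBDL6w and 0.0827 to 0.0998% in Sham6w, and stellate cell markers 0.00250 to 0.00520% in CBDL6w and 0.00556 to 0.00912% in Sham6w.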
